A study of Homo sapiens with 2 samples.

Results

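The genes described are 7 markers by which stem-like tumour cells are commonly sorted: the surface proteins CD44, PROM1 (CD133), EPCAM, NGFR (CD271) and THY1 (CD90), and the aldehyde dehydrogenases ALDH1A1 and ALDH1A3. They were taken as a named list, 7 of 20037 protein-coding gene records in RefSeq for GRCh38. A peak summit was assigned to a gene when it lay inside its record, within 1 kb of an end, or within 50 kb of the record. The peaks come from CAL-27 cells grown as spheres, with no further treatment given. The CAL-27 line was established from a squamous carcinoma of the tongue, and growth in spheres is a common way to enrich stem-like cells. The TCF4 antibody and the IgG control each have 1 library of genomic DNA. The IgG library was not analysed here, so peaks that form without TCF4 were not set apart. With 1 library, no value has a replicate check and no test was made. The name TCF4 is used both for an E protein that binds E-box sites and for TCF7L2, a partner of beta-catenin, and the labels do not say which one the antibody recognises. A peak list holds no RNA or protein level, so neither the cell type on the label nor the expression of the 7 genes could be checked.

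CD44 is a receptor for hyaluronan, a sugar polymer of the matrix, and is widely used to isolate stem-like cells from head and neck squamous carcinoma. PROM1 is a membrane protein of cell protrusions, EPCAM an epithelial adhesion molecule, NGFR the low-affinity receptor for neurotrophins, and THY1 a surface protein held by a lipid anchor. ALDH1A1 and ALDH1A3 oxidise retinaldehyde to retinoic acid, and dye-based assays of aldehyde dehydrogenase activity are used to sort stem-like cells. CD44 is often listed among the targets of beta-catenin in the intestine.

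Few of these genes carried a peak of their own. A summit within 1 kb of an end was found at EPCAM alone, 1 of 7 genes (14.3%), against 41.2% of all protein-coding records. CD44 and NGFR had summits inside the record, 2 of 7 genes (28.6%), against 38.8% of all protein-coding records. Widening the search to 50 kb on either side gave 18 summits around 6 of the 7 genes (85.7%), against 77.4%, and left PROM1 with none. These shares rest on 7 genes and are descriptions. Fold enrichment, the authors' value, is the number of fragments at the summit plus 1, divided by the peak caller's local background plus 1. Over the 18 summits it ran from 3.5 to 9.27 with a median of 4.98, against a median of 5.13 over all 26642 peaks. The fragments at the summit, worked back from the fold and p of each peak, ran from 6 to 22 with a median of 8, against 10 over all peaks. The −log10 q reached 5 in 5 of the 18 and 10 in 2, the EPCAM end peak and a peak beside NGFR. Of all 26642 peaks, it reached 5 in 10977 and 10 in 4375. Among peaks with a −log10 q of 5 or more, 1 of the 7 genes had a summit at an end (27.1% of all protein-coding records), 1 had one inside (19.9%) and 4 had one within 50 kb (58.9%). Among those with 10 or more, 1 gene had one at an end (14.1%), 0 inside (8.18%) and 2 within 50 kb (37.1%). No peak in the whole list rested on fewer than 5 fragments, so the list cannot show whether weaker sites lie at the other genes. Intervals on fragment counts below are exact 95% Poisson intervals and cover counting error only.

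**Figure D1:**
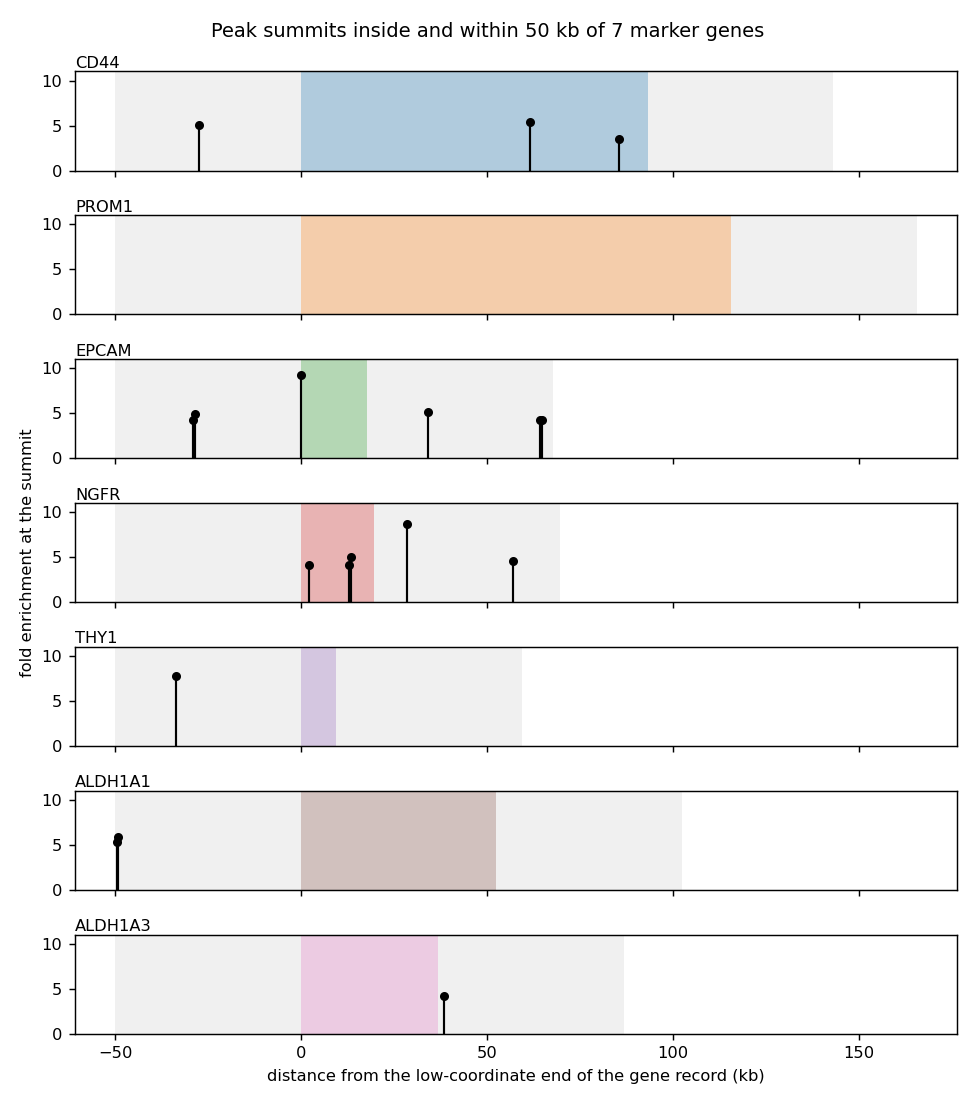
Peak summits around the 7 genes. Each panel is a gene, with the distance from the low-coordinate end of its record in kb on the horizontal axis and the fold enrichment at the summit on the vertical axis; the coloured band is the record, the grey band the 50 kb on either side, and each stem is a summit. EPCAM has a summit at its edge with a fold of 9.27, CD44 has 2 and NGFR 3 inside, and PROM1 has none.

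The RefSeq promoter table held windows for 4 of the 7 genes: CD44, PROM1, ALDH1A1 and ALDH1A3. A window runs from 250 bases before a transcript start to 50 after it. None of their 7 windows, 4 of which belong to PROM1, held a summit, against 23.6% of 22199 windows of protein-coding genes that did. EPCAM, the only gene with a summit at an end, had no window there, nor did NGFR and THY1. The comparison thus leaves out the EPCAM peak. The sequences at the record's own start are shown because they are the promoters where no peak was called, and that of ALDH6A1 because it is the ALDH family window with the strongest summit. Capitals mark the E-box letters CANNTG and the TCF/LEF core letters CTTTGA, each searched on both strands, so that CTTTGA may appear as TCAAAG. They are from RefSeq GRCh38.p14, 5′ to 3′ on the strand of the gene. CD44 is chr11:35138921-35139220 on the plus strand, PROM1 chr4:16083974-16084273 on the minus strand, ALDH1A1 chr9:72953004-72953303 on the minus strand, ALDH1A3 chr15:100879581-100879880 on the plus strand and ALDH6A1 chr14:74084404-74084703 on the minus strand.
CD44: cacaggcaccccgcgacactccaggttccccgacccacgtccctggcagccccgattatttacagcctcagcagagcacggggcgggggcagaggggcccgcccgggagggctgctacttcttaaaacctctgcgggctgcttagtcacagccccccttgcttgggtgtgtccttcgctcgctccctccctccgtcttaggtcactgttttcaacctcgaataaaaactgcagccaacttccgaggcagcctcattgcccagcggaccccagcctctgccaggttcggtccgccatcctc
PROM1: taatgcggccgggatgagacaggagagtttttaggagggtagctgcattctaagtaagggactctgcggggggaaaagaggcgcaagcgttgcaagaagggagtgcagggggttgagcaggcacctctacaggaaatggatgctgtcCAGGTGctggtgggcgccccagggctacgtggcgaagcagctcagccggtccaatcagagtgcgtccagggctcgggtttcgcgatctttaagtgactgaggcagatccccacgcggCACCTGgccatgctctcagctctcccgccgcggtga
ALDH1A1: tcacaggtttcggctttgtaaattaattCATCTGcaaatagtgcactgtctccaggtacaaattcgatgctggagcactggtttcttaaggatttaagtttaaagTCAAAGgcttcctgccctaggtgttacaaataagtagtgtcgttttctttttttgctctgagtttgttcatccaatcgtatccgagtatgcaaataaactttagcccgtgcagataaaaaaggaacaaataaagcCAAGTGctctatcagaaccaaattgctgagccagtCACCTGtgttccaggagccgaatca
ALDH1A3: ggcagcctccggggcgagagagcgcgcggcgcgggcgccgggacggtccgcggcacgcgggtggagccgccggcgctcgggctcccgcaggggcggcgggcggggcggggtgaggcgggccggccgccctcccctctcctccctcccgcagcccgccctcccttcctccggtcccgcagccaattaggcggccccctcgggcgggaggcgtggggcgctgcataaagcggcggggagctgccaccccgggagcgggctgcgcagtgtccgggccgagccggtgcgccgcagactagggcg
ALDH6A1: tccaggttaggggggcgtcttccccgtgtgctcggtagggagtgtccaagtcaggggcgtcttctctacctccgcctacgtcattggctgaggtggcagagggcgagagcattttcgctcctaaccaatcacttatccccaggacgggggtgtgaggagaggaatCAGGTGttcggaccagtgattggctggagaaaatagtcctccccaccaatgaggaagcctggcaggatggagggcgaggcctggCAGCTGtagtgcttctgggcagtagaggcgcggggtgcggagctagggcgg

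The 4 promoters without a peak differ widely in base composition. ALDH1A1 had a GC content of 40.3% and 7 CpG dinucleotides, with 6.72% of protein-coding windows lower in GC. ALDH1A3 lay at the other extreme, with 81.7% GC and 46 CpG, and 98.1% of windows were lower in GC. CD44 had 63.3% GC and the PROM1 window shown 60.7%, both with 18 CpG, near the median GC of 62.3%. Among all windows the share with a summit was 1.54% in the quartile of fewest CpG (0 to 7), which holds ALDH1A1. It was 17.0% at 8 to 21 CpG, where CD44 and the PROM1 window shown fall, 38.1% at 22 to 31 and 39.7% at 32 to 69, where ALDH1A3 falls. The PROM1 windows not shown had 32, 24 and 6 CpG. ALDH1A3 and the PROM1 window with 32 CpG therefore lacked a summit in the class that most often carried one, by a small margin. ALDH1A1 and the PROM1 window with 6 CpG lacked one in the class that rarely did. ALDH6A1, with 15 CpG and 61.0% GC, had its summit 202 bp before the start, with a fold of 15.8.

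**Figure D2:**
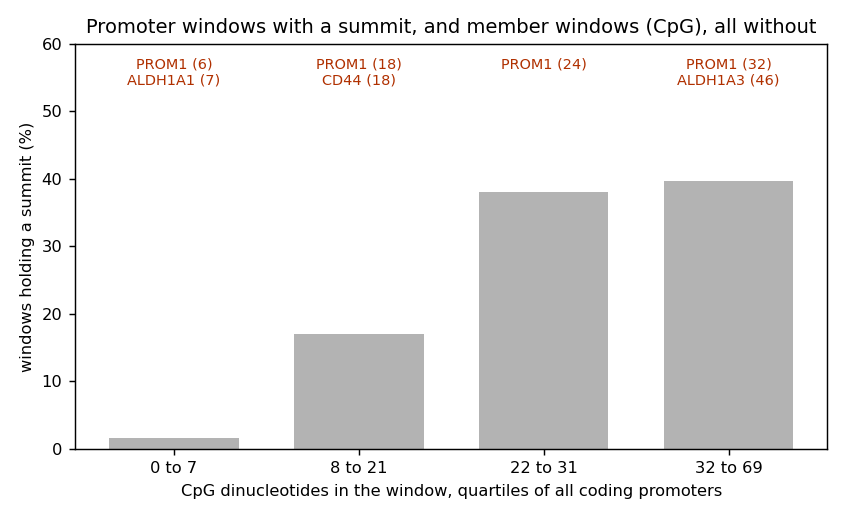
Share of promoter windows that hold a peak summit, by CpG content. Bars give the percentage of windows of protein-coding genes with a summit (vertical axis, from 0) in each quartile of CpG dinucleotides per window (horizontal axis); names above each bar place the 7 windows of CD44, PROM1, ALDH1A1 and ALDH1A3 with their CpG number, none of which holds a summit. The share is 1.54% in the lowest quartile, with ALDH1A1 and a PROM1 window, and 39.7% in the highest, with ALDH1A3 and another PROM1 window. EPCAM, which has a summit at an end, has no window and is not placed.

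Motif letters were also unevenly spread among these windows. The ALDH1A1 window held 3 matches to CANNTG, 1 of them CAGGTG, and 1 match to CTTTGA. The PROM1 window shown held 2 matches, both CAGGTG, which is a form of CANNTG, and none to CTTTGA. Neither set of letters occurred in the CD44 and ALDH1A3 windows. ALDH6A1 held 2 E-box matches, 1 CAGGTG and 1 CAGCTG. In all protein-coding windows of this length, 65.1% held CANNTG, 19.9% CAGGTG, 18% CAGCTG and 10.9% CTTTGA. Of windows with a summit, 57.3% held CANNTG and 6.61% CTTTGA, against 67.5% and 12.3% of windows without one, differences that were not tested. A match is a description of the letters and not a binding site.

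EPCAM (RefSeq chromosome 2 from 47369311 to 47387020) carried the tallest of the 18 peaks by fold. The peak ran from 47369117 to 47369293, 177 bp, and lay wholly outside the record with its summit 68 bp beyond the low-coordinate end. EPCAM is known to be transcribed from that end, so the summit lay just upstream of the start. The fold was 9.27 on 14 fragments (7.65 to 23.5) over a background of 0.618, with a −log10 q of 11.5. Of all peaks, 92.4% had a lower fold. Ranked by the strongest peak at an end, EPCAM stood at place 1431 of the 8248 protein-coding genes with one, whose median was 6.38. No summit lay inside the record, where 37.0% of 2248 genes of similar length had one. Genes of similar length here are those between 0.8 of the record's length and the inverse of that ratio.

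The other 5 summits within 50 kb of EPCAM were weaker, with folds of 4.2 to 5.1 on 6 to 8 fragments. A pair lay 29.0 and 28.5 kb before the low-coordinate end, 545 bp apart, inside the long non-coding record EPCAM-DT. Their folds were 4.3 and 4.96 on 6 and 7 fragments. The remaining 3 lay 16.4, 46.6 and 47.2 kb past the high-coordinate end, with folds of 5.1, 4.2 and 4.22. The EPCAM neighbourhood was thus well filled, since 80.9% of protein-coding genes had fewer summits within 50 kb, but the end peak alone had a −log10 q of at least 5.

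CD44 (chromosome 11 from 35139171 to 35232402) had a pair of internal summits, both far from its start. CD44 is transcribed from the low-coordinate end, as the strand of its promoter window shows. The first internal summit lay 61.6 kb into the record, in a peak from 35200758 to 35201010. Its fold was 5.35 on 8 fragments (3.45 to 15.8) and a −log10 q of 4.05. The second lay 85.4 kb in, 7787 bp before the far end, in a peak from 35224513 to 35224687. Its fold of 3.5 on 7 fragments (2.81 to 14.4) was the lowest of the 18, and 3.58% of all peaks had a lower one. Its −log10 q of 1.54 lay close to the lowest in the list, 1.3. A long gene offers more room for summits: of 1639 genes of similar length, 53.9% had a summit inside and 24.6% had at least 2.

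Upstream of CD44 a further summit lay 27.4 kb before the start, in a peak of 387 bp from 35111484 to 35111870. Its fold was 5.1 on 14 fragments (7.65 to 23.5), and its −log10 q of 5.17 was the highest of the 3 CD44 summits. It fell in no gene record. Between it and the first internal summit, 89.0 kb that include the CD44 start and the divergent record CD44-DT held none. Within 50 kb of CD44 lie the records LOC105376627 and SLC1A2, each with a summit within 1 kb of an end, but those summits lay 56.4 and 188 kb from CD44.

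NGFR (chromosome 17 from 49495293 to 49515008) held more summits inside its record than any other of the 7 genes. There were 3 in 19.7 kb, or 1.52 per 10 kb, against 0.215 per 10 kb in CD44. Of 2291 genes of similar length, 3.58% held at least as many. The first lay 2.07 kb from the low-coordinate end, outside the window of 1 kb, with a fold of 4.09 on 9 fragments (4.12 to 17.1). The other two lay 12.9 and 13.5 kb in, 585 bp apart, with folds of 4.12 on 14 fragments (7.65 to 23.5) and 5.01 on 18 (10.7 to 28.4). Their −log10 q values were 3.64 and 6.22.

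The strongest peak near NGFR lay outside it. It ran from 49523790 to 49523984, 8.88 kb past the high-coordinate end. The fold was 8.73 on 22 fragments (13.8 to 33.3), and the −log10 q was 14.1, the highest of all 18. Of all peaks, 90.3% had a lower fold. This peak, the internal pair and a summit 37.2 kb past the end (fold 4.52 on 11 fragments) all fell inside NGFR-AS1, a non-coding record that overlaps NGFR. The caller's local background at the 5 NGFR summits was 1.44 to 2.79 fragments, against a median of 0.962 over all peaks and 0.613 to 0.766 at the 6 EPCAM summits. The higher fragment counts at NGFR thus stood over a higher background, and its part in the number of summits there was not tested. On chromosome 17 as a whole, 49.3% of protein-coding genes had a summit at an end.

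**Figure D3:**
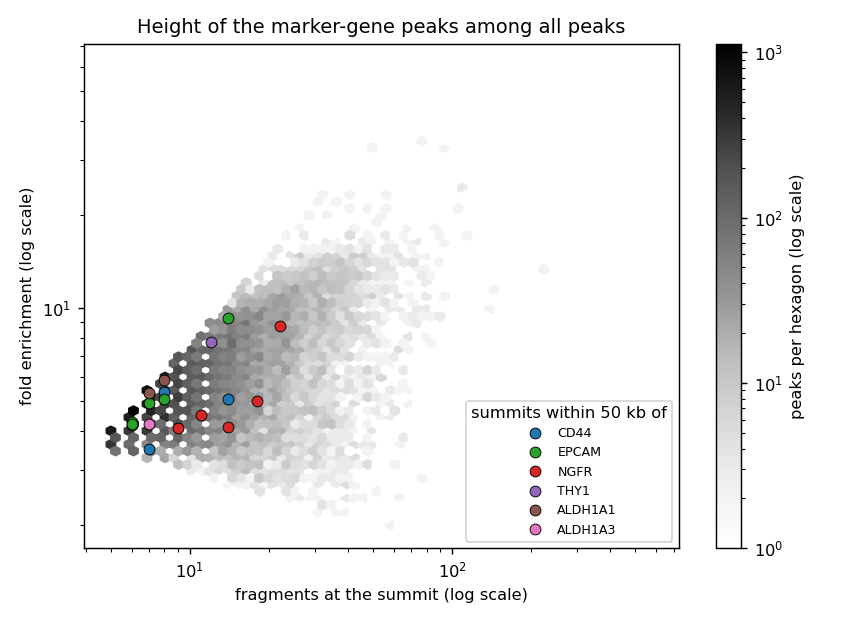
Height of the 18 summits among all peaks. Each hexagon is shaded by the number of the 26642 peaks at that number of fragments at the summit (horizontal axis, log scale) and fold enrichment (vertical axis, log scale); coloured points are the summits within 50 kb of each gene. Most of the 18 lie at the left edge with 6 to 9 fragments. The EPCAM end peak (14 fragments, fold 9.27), the peak past NGFR (22 fragments, fold 8.73) and the peak near THY1 (12 fragments, fold 7.75) stand higher.

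THY1 (chromosome 11 from 119415476 to 119424985) had no summit inside or at an end. Its only summit within 50 kb lay 33.8 kb from the low-coordinate end. It had a fold of 7.75 on 12 fragments (6.2 to 21.0) and a −log10 q of 8.53. That peak, from 119381522 to 119381909, lay at the ends of other genes: 13 bp from an end of USP2, a deubiquitinating enzyme, and 75 bp from an end of USP2-AS1, a non-coding record that runs across THY1. No further summit was found for 267 kb past the high-coordinate end. THY1 thus lay in a stretch of 311 kb without a summit, and 22.1% of all protein-coding genes and 25.3% of those on chromosome 11 lay in one at least as long.

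PROM1 (chromosome 4 from 15968228 to 16084023) was the emptiest locus. Its nearest summit lay 62.1 kb below the low-coordinate end, and on the other side the nearest was 1493 kb away. The stretch of 1671 kb around it without a summit was exceeded by 0.631% of all gaps between neighbouring summits. Of genes of similar length, 55.4% had a summit inside. On chromosome 4, 19.2% of the 770 protein-coding genes had a summit at an end, with lower shares on X and Y alone. A summit inside or within 50 kb was found for 41.6% of them, against 77.4% of all records. The median gap between neighbouring summits was 55.4 kb there, against 30.6 kb over all chromosomes. Of the chromosome 4 gaps, 5.89% were longer than 1671 kb. Of its protein-coding genes, 35.8% lay in a stretch without summits at least as long as that of PROM1. Over all chromosomes, 6.04% of protein-coding genes did. The neighbours FGFBP1 and FGFBP2 had no summit inside or at an end either.

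The pair of ALDH1A genes differed in how far the nearest summit lay. ALDH1A1 (chromosome 9 from 72900671 to 72953053) is transcribed from its high-coordinate end, 102 kb from the nearest summit. Its only summits within 50 kb were a pair 316 bp apart, 49.7 and 49.3 kb beyond the low-coordinate end, just inside the limit. Their folds were 5.31 on 7 fragments (2.81 to 14.4) and 5.86 on 8 (3.45 to 15.8). ALDH1A1 lay in a stretch of 249 kb without a summit. On chromosome 9, where 52.3% of protein-coding genes had a summit at an end, the highest share of any chromosome, 12.3% lay in a stretch as long. Over all chromosomes the share was 25.6%.

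ALDH1A3 (chromosome 15 from 100879831 to 100916626) had a single summit within 50 kb, 1.56 kb past its high-coordinate end. ALDH1A3 is transcribed from the low-coordinate end, so this summit lay beyond its finish, 38.4 kb from the start. The peak spanned 100918072 to 100918210. Its fold was 4.21 on 7 fragments (2.81 to 14.4) and its −log10 q 2.36. It fell inside the overlapping record ALDH1A3-AS1. The summit missed the window of 1 kb at the end. LRRK1, a protein-coding record, begins 2.73 kb past the same end, so the summit lay nearer to LRRK1 than to ALDH1A3. On the start side, no summit lay within 72.3 kb of the record.

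Most of the other ALDH genes carried a peak at an end. The count was 11 of 17 (64.7%), against 41.2% of all protein-coding records, and 8 had a −log10 q of at least 5 (27.1% of all records). ALDH16A1, a family member thought to lack catalytic activity, had a fold of 17.8 on 67 fragments (51.9 to 85.1). ALDH6A1, a mitochondrial enzyme of valine breakdown, had 15.8 on 41 fragments, in a peak that also lay at an end of LIN52. ALDH3A2, which oxidises fatty aldehydes, had 8.96 on 16 fragments, 586 bp from an end. ALDH1A2, another retinaldehyde dehydrogenase, had no summit at an end and 1 inside, and ALDH1L1, a folate enzyme, had neither. Peaks of 3 of the 11 genes also lay within 1 kb of an end of another protein-coding gene.

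In the retinoid pathway that uses the product of both enzymes, 5 of 19 genes (26.3%) had a summit at an end, against 41.2% of all protein-coding records. In 3 of the 19 the −log10 q was at least 5, against 27.1% of all records. RDH10, which makes retinaldehyde, had a fold of 8.1 on 16 fragments, in a peak that also lay at an end of RPL7. The receptors RARG and RXRB had 5.46 and 5.36, both on 20 fragments, and the RXRB peak also lay at an end of SLC39A7. RARA, not counted, had a summit with a fold of 7.82 in a promoter window inside its record, over 1 kb from either end. CRABP1 and CRABP2, which carry retinoic acid in the cell, had no summit inside or at an end.

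Other surface markers of stem-like cells had a summit at an end in 8 of 21 genes (38.1%), a share near the 41.2% of all protein-coding records. In 7 of the 21 the −log10 q was at least 5, against 27.1% of all records. MET, the receptor for hepatocyte growth factor, had a fold of 15.4 on 28 fragments. CD55, an inhibitor of complement, had 13.0 on 44, and PROCR, the protein C receptor, had 8.71 on 21. ABCB5 and ABCG2, drug transporters, had no summit at an end, and ABCB5 had 1 inside.

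Among hyaluronan and CD44 partners, 8 of 18 genes (44.4%) had a summit at an end, again near the 41.2% of all records, and 7 had one with a −log10 q of at least 5 (27.1% of all records). HYAL1, which degrades hyaluronan, had a fold of 13.8 on 50 fragments, in a peak that also lay at ends of HYAL3 and NAA80. NF2, which links CD44 to growth control, had 8.66 on 17, and HYAL2 had 7.58 on 17. The HYAL1 and HYAL2 summits lay 361 and 757 bp beyond the low-coordinate ends of their records. The records do not give which end is the start. CEMIP, a hyaluronan-binding protein, had no summit at an end and 1 inside, and the synthase HAS1 had neither.

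Relatives and partners of EPCAM and the prominins had a summit at an end in 8 of 11 genes (72.7%), against 41.2% of all protein-coding records. In 7 of the 11 the −log10 q was at least 5, against 27.1%. ADAM10, a sheddase, had a fold of 11.8 on 21 fragments, the protease inhibitor SPINT2 had 10.9 on 30 and the sheddase ADAM17 had 8.59 on 18. FHL2, which binds the inner fragment of EPCAM, had no summit at an end and 3 inside. PROM2, the relative of PROM1, had none inside or at an end.

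Neurotrophins and their receptors had a summit at an end in 3 of 10 genes (30.0%), against 41.2% of all records, and in 1 the −log10 q was at least 5 (27.1%). NTF4 had a fold of 8.21 on 21 fragments, 762 bp from an end, and a −log10 q of 12.8. BDNF had a fold of 4.52 on 8 fragments and a −log10 q of 2.91. NTRK2, not counted, had a summit with a fold of 5.39 in a promoter window inside its record, over 1 kb from either end. BEX3 and MAGED1, which bind NGFR inside the cell, had no summit inside or at an end.

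**Figure D4:**
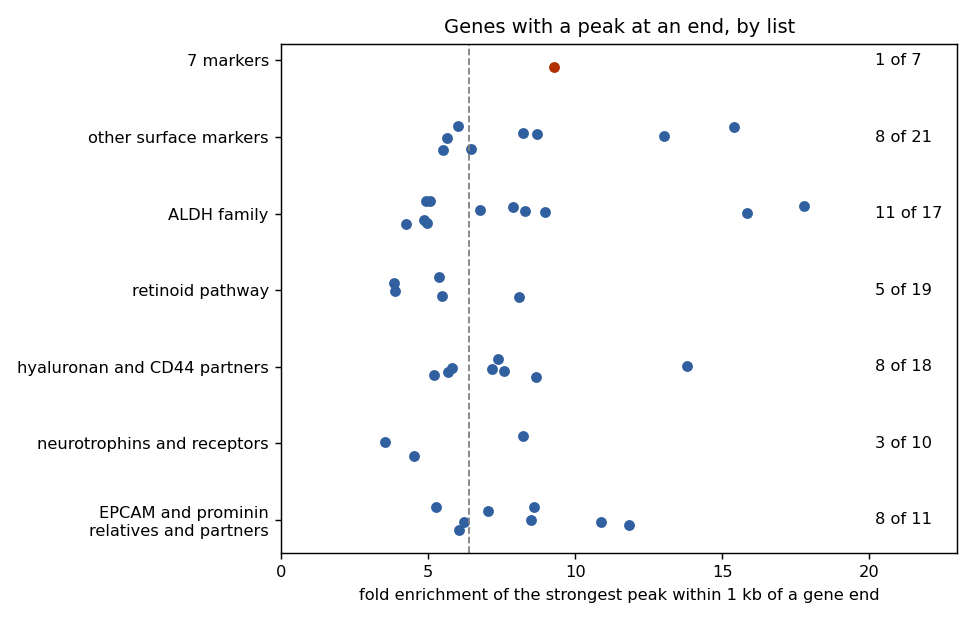
Fold enrichment of the strongest peak within 1 kb of a gene end (horizontal axis) for the 7 markers and the 6 lists of related genes (rows). Each point is a gene with such a peak, shifted vertically to keep points apart; the counts at the right give such genes of all genes in the row, and the dashed line is the median of 6.38 over all protein-coding genes with such a peak. The markers have 1 of 7, at 9.27, and the ALDH family 11 of 17, reaching 17.8.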

How the data were processed

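Per the submitters' processing notes, Bowtie2 2.3.5.1, SAMtools and MACS2 2.2.7.1 were used with the build hg38; settings and the use of the IgG library as control are not given in the sources used here. The deposited list of the single TCF4 library gives a fold ratio, −log10 values of p and q, and a score, which equals 10 times the −log10 q with decimals dropped in all 26642 peaks. Fragments (k) and background (b) at each summit were solved from fold = (k + 1) / (b + 1) and a Poisson upper tail. The solution matched the −log10 p to 0.0001 in each of the 26642 peaks, and 500 of 500 simulated peaks gave back their fragments. Of simulated summits near gene ends, 200 of 200 were classed as planted. Gene records, 59679 in all, and promoter windows came from RefSeq GRCh38.p14. Record coordinates carry no strand or exons, so exon, intron and UTR classes were not used here.

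The 7 genes, the 6 lists of related genes (96 genes, all found) and the alternatives were chosen with earlier results of these data known. All 7 genes and their summits are described. Each list gave up to 3 genes with the highest fold at an end and up to 2 without a summit at an end, in alphabetical order. Neighbours with a summit at an end are named as well. RARA and NTRK2 are named beyond this rule, for a summit in a promoter window away from the record ends. Some genes that this rule covers are not reported here. No likeness of pattern can be measured in 1 library. Alternatives were stricter q thresholds, other windows and flanks, and peak overlap. Work was done in Python 3.11.15 with pandas 2.3.3, SciPy 1.17.1, NumPy 2.4.6 and, for plots, Matplotlib 3.10.9.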

Additional observations from a re-analysis of the deposited data

How the results depend on the processing

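With 1 library no replicate could be left out, and no paired analysis was possible because each antibody has a single sample. The count of genes with a summit at an end, 1, stayed at 1 with a −log10 q of at least 5 or 10, with a window of 500 bp and with any overlap of the peak. It was 2 with a window of 2000 bp, which adds ALDH1A3. The count with a summit inside, 2, was the same with any overlap, 1 with a −log10 q of at least 5 (NGFR) and 0 with at least 10. The 18 summits within 50 kb became 5 with a −log10 q of at least 5, 2 with at least 10, 9 with a flank of 20 kb and 31 with a flank of 100 kb, and stayed 18 with any overlap. These changes follow from fewer peaks or a smaller or larger window. Of the 96 related genes, 43 had a summit at an end, 33 with a −log10 q of at least 5, 36 and 47 with windows of 500 and 2000 bp and 43 with any overlap; with at least 10 the count was 16. With a −log10 q of at least 5 and 10 the background fell alike, from 41.2% of protein-coding genes to 27.1% and 14.1%. No such share was taken for windows of 500 and 2000 bp, flanks of 20 and 100 kb or any overlap. The counts at those settings, for the markers and the related genes, therefore cannot be set against all genes. Depth limits what can be said of genes without a peak, since 39.3% of all peaks rested on 8 fragments or fewer.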
